A study of Homo sapiens with 41 samples.

Results

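The 40 genes of autophagy and the lysosome described here were found in the count files by mapping the Ensembl identifiers of 58735 genes to symbols, and each of the 40 was found. They comprise 24 genes of the autophagosome, 13 genes of the lysosome, and the 3 transcription factors TFEB, TFE3 and MITF of the MiT/TFE family. The series asked how the transcription factor ATF4 acts in 2 human cell lines by sequencing RNA from cells with shATF4, an shRNA against ATF4, or with shCtrl, the control shRNA. LX-2 derives from human hepatic stellate cells, which make the collagen of the scarred liver and were immortalised, and HMLE from human mammary epithelium, also immortalised. LX-2 cells were kept in AA_Dep, a label taken to mean amino acid deprivation, in thapsigargin, an inhibitor of the calcium pump that fills the endoplasmic reticulum, in TGFbeta, a fibrogenic cytokine, or in the vehicle DMSO. HMLE cells had AA_Dep, thapsigargin and DMSO as well, and Twist_OE, overexpression of the transcription factor Twist, in place of TGFbeta. Each of the 16 groups of line, shRNA and condition had 2 samples. The labels give no dose, no duration, and no statement that replicates were separate cultures.

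Autophagy encloses cytoplasm in a double membrane, the autophagosome, which fuses with the lysosome, where acid hydrolases break the cargo down. Kinases of the ULK complex start it, a lipid kinase complex and lipid-transfer proteins build the membrane, 2 ubiquitin-like conjugation systems attach ATG8 proteins such as LC3 to it, and receptors such as p62 bring the cargo. TFEB, TFE3 and MITF bind E-boxes of lysosomal and autophagy genes, and ATF4, the effector of the integrated stress response, is known to bind and induce several autophagy genes when amino acids run short or proteins misfold in the endoplasmic reticulum.

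Each LX-2 sample held 14551191 to 18776430 counts in total, and each HMLE sample 15956909 to 23243132. The 2 HMLE shATF4 AA_Dep samples held identical values and were counted as 1 sample, so 31 libraries were distinct. LX-2 shCtrl thapsigargin replicate 2 stood apart: 15840 genes had a count in it and 22912 to 24255 in each of the remaining LX-2 libraries, and its correlation with its replicate was 0.8353, against at least 0.989 in every other pair. Results come from the fit without it (15 LX-2 libraries, biological coefficient of variation 9.21%), and the fit with all 16 (29.5%) is given beside them. Groups left with 1 library take their spread from the remaining groups. ATF4 itself stood between 110 and 206 normalised CPM in LX-2 shATF4 libraries and between 208 and 713 in the LX-2 shCtrl libraries other than the discordant one (1113). In HMLE the values were 111 to 166 with shATF4 and 312 to 946 with shCtrl. The 9 stellate markers summed to 1861 to 22642 CPM in LX-2, where 6 of them passed 1 CPM in every library and DES in none. In HMLE they summed to 181 to 3846 CPM over all conditions, and 5 of them passed 1 CPM in every library. The 9 epithelial markers summed to 421 to 1563 CPM in LX-2, where 3 of them passed 1 CPM in every library and CDH1, EPCAM, KRT5, KRT14 and CDH3 in none. All 9 epithelial markers were above 1 CPM in every HMLE library.

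Levels are CPM, counts scaled to a common library size after TMM normalisation, which depend on gene length and are not compared between genes. Changes are log2 values with their SE from edgeR's quasi-likelihood test, and a gene was called higher or lower where its Benjamini-Hochberg adjusted p over all genes of the line was under 0.05. In RNA from whole cultures, fewer cells of a type and less RNA per cell cannot be told apart. Where groups are said not to overlap, the genes were already named for their calls. Such statements describe the values and add no support to a call, and their share over all genes was not counted.

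Windows of 300 bases around the annotated starts (250 before and 50 after, RefSeq, GRCh38.p14) were available for 34 of the 40 members, 44 windows in all. None was available for MAP1LC3A or for the lysosome genes LAMP2, CTSB, HEXA, ATP6V1A and ATP6V1H, so the lysosome windows cover that subset in part. The E-box core CACGTG, which reads the same on both strands, occurred in 7.26% of the 35116 windows of all genes, in 4 of 9 lysosome windows (44.4%), in 2 of 28 autophagosome windows (7.14%) and in 0 of 7 windows of the MiT/TFE factors. TGATGNAA, a core of the composite element bound by ATF4 and C/EBP proteins, searched on both strands, occurred in 3.62% of all windows and in 0 of the 44. The 250 bases before the start are shown for LAMP1 and MCOLN1, genes of the lysosomal membrane that moved in opposite directions in LX-2 thapsigargin, and for MAP1LC3B, whose stress responses differed with shATF4 in both lines. Capitals mark the core CACGTG, and the last capital of LAMP1 is the first base of a sixth core that spans the start. The windows are chr13:113296989-113297238, chr19:7522374-7522623 and chr16:87392086-87392335, all on the plus strand.
LAMP1: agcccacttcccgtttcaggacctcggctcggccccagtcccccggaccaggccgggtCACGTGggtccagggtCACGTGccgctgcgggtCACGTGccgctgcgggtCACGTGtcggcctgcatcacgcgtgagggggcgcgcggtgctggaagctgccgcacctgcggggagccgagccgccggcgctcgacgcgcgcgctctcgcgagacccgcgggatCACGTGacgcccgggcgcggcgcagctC
MCOLN1: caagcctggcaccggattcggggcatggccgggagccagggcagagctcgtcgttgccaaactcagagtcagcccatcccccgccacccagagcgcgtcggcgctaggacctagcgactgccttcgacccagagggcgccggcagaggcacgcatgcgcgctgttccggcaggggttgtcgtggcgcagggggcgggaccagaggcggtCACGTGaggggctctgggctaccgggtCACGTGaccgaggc
MAP1LC3B: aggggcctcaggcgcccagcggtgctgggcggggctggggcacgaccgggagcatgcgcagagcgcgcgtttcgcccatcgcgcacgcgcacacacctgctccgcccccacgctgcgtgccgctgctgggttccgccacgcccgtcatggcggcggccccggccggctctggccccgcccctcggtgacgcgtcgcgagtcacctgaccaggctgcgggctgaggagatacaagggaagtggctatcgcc
The LAMP1 window held 6 cores and was the 1 window of all genes with 5 or more. MCOLN1 held 2, at 41 and 14 bases before the start, and MAP1LC3B held neither motif. CTSD, ATP6V0D1, ATG3 and ATG14 were the other members with a core. These matches describe letters in these windows only.

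Summed over the 24 autophagosome genes, AA_Dep gave the highest level in both lines and with either shRNA. In LX-2 the AA_Dep libraries summed to 1967 and 1964 CPM with shATF4, against 2458 and 2288 CPM with shCtrl. The DMSO libraries of LX-2 summed to 1692 and 1648 CPM with shATF4, against 1428 and 1522 CPM with shCtrl. The shATF4 libraries of LX-2 therefore lay below the shCtrl libraries in AA_Dep and above them in DMSO. HMLE had 1574 CPM in the shATF4 AA_Dep library and 1666 and 1659 CPM in the shCtrl AA_Dep libraries, against 988 and 983 CPM in shATF4 DMSO and 948 and 972 CPM in shCtrl DMSO. Most of the LX-2 rise in AA_Dep came from SQSTM1, whose levels are given below. The median log2 change of the 24 genes in LX-2 AA_Dep was 0.06 with shCtrl and -0.05 with shATF4. In HMLE AA_Dep it was 0.53 with shCtrl and 0.27 with shATF4.

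The 13 lysosome genes were ordered differently. Their sum was highest in HMLE under Twist_OE, with 2139 and 2080 CPM with shATF4 against 2849 and 2755 CPM with shCtrl, where the HMLE DMSO libraries lay between 1558 and 1620. In LX-2 the lysosome sum was 1632 and 1616 CPM in shATF4 AA_Dep and 1749 and 1706 CPM in shCtrl AA_Dep, below every DMSO library of the same line (2000 and 2056 CPM with shATF4, 1846 and 2035 CPM with shCtrl). The discordant LX-2 library held 3655 CPM of lysosome transcripts, against 1557 CPM in its replicate, while its autophagosome sum was 1781 CPM against 1807 CPM. These sums weigh genes by their counts and were given no test. Most of the Twist_OE rise came from CTSB, whose levels are given below. The median log2 change of the 13 genes in Twist_OE was 0.29 with shCtrl and 0.14 with shATF4. In LX-2 AA_Dep it was 0.10 with shCtrl and -0.10 with shATF4.

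**Figure D1:**
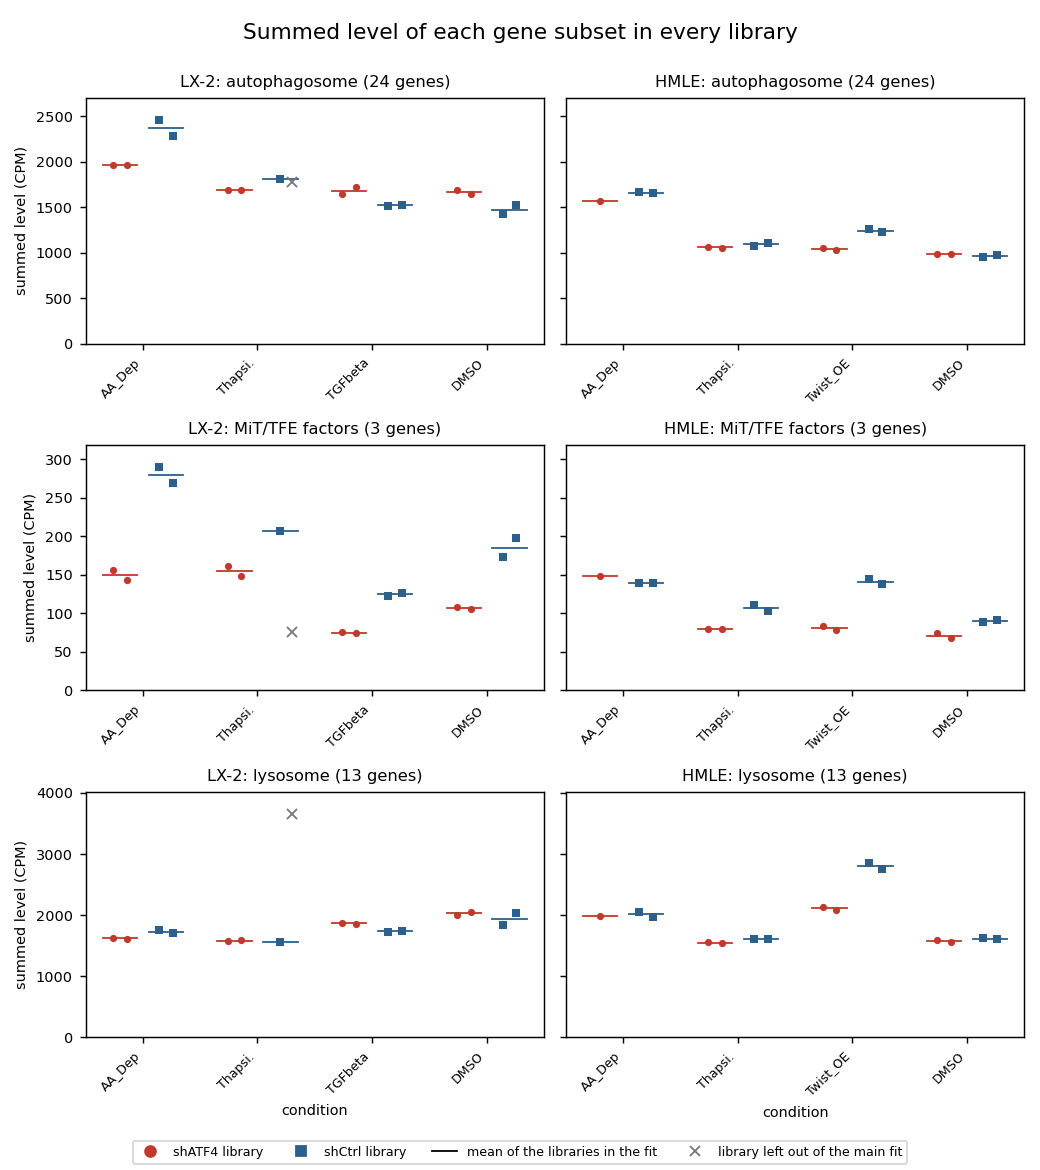
Summed normalised CPM of the autophagosome genes, of the MiT/TFE factors and of the lysosome genes (vertical axes, top to bottom) by condition in LX-2 and HMLE, with 1 point per library, shATF4 (red circles) left of shCtrl (blue squares), short lines at group means, and a grey cross for the library left out of the fit. AA_Dep holds the highest autophagosome sums in both lines, and Twist_OE with shCtrl holds the highest lysosome sums of HMLE, at 2849 and 2755 CPM.

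In HMLE shCtrl cells 34 members were called in amino acid deprivation, 33 in Twist_OE and 14 in thapsigargin. The shares of all genes called there were 61.7%, 57.2% and 36.8%. In LX-2 shCtrl cells AA_Dep had the most members called in the fit without the discordant library only. In LX-2 shCtrl cells 17 of the 40 members rose and 10 fell in AA_Dep against DMSO, where 45.6% of all genes tested were called (22.8% higher and 22.7% lower), and the median log2 change was 0.09 over the members and 0.02 over all genes. The fit with all 16 LX-2 libraries called 7 members, against 13 in thapsigargin: SQSTM1, GABARAP, GABARAPL1 and ULK1 rose and ATG10, LAMP1 and CTSB fell. In HMLE shCtrl cells 23 rose and 11 fell, against a background of 61.7% (29.1% higher and 32.6% lower), with medians of 0.42 over the members and 0.00 over all genes. The same 13 genes rose in both lines, which is 13 of the 17 that rose in LX-2 and 13 of the 23 that rose in HMLE: the receptors SQSTM1 and NBR1, the ATG8 proteins GABARAP and GABARAPL1, ULK1, ATG13, WIPI1, ATG14, ATG12, TFE3, MITF, NPC1 and MCOLN1. In both lines ATG3, ATG4A, ATG5, ATG10, ATG16L1 and ATP6V1A fell. Thus 5 of the 7 genes of the conjugation machinery fell in both lines while its ubiquitin-like protein ATG12 rose. The share of all genes called in the same direction in both lines was not counted, so these overlaps have no background beside them. Leaving out 1 library at a time, the LX-2 call was lost for NBR1 without any of 2 libraries, MITF without any of 3 and ATG16L1 without 1, and the HMLE call for GABARAP without any of 3, ATG10 without any of 3 and MCOLN1 without 1. ATG3 lost its call without any of 2 libraries in each line, and ATG5 without any of 2 in LX-2 and 3 in HMLE. GABARAP stood at a few CPM and overlaps PHF23 in the annotation, so its values are uncertain.

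SQSTM1 encodes p62, the receptor that links ubiquitinated cargo to LC3. In LX-2 shCtrl cells it had 978 and 763 CPM in AA_Dep, against 193 and 227 CPM in DMSO, a log2 change of 2.08 ± 0.10 (adjusted p = 2.5e-10). In HMLE shCtrl cells SQSTM1 had 351 and 343 CPM in AA_Dep, against 99.2 and 101 CPM in DMSO (1.79 ± 0.05, adjusted p = 1.1e-15). No AA_Dep library overlapped a DMSO library. ULK1, the kinase that starts autophagy, rose by 1.25 ± 0.08 in LX-2 (336 and 299 CPM in AA_Dep, against 130 and 143 in DMSO) and by 3.11 ± 0.09 in HMLE (121 and 109 CPM, against 13.7 and 13). Tested between the lines, the LX-2 response of ULK1 minus the HMLE response was -1.89 ± 0.12 (adjusted p = 4e-12).

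Further autophagosome genes rose more in HMLE. In HMLE GABARAPL1 had 47.6 and 47.1 CPM in AA_Dep, against 12.8 and 14.5 CPM in DMSO (1.80 ± 0.10, adjusted p = 8.6e-12), and NBR1, a second ubiquitin-binding receptor, had 142 and 138 CPM, against 51.8 and 55 CPM (1.39 ± 0.06, adjusted p = 3.1e-13). The LX-2 changes were 0.88 ± 0.11 for GABARAPL1 and 0.32 ± 0.09 for NBR1. MAP1LC3B, the LC3 protein used as the standard autophagosome mark, rose by 1.12 ± 0.05 in HMLE (187 and 190 CPM in AA_Dep, against 84.4 and 89.7 in DMSO). In LX-2 MAP1LC3B was not called, with 53.2 and 64.5 CPM in AA_Dep against 72 and 68.9 CPM in DMSO. WIPI1, which binds the lipid of the growing membrane, rose by 0.91 ± 0.11 in LX-2 and by 1.78 ± 0.14 in HMLE. Over all members the LX-2 response to AA_Dep minus the HMLE response was called higher for 4 and lower for 18. Of all genes 40.3% differed between the lines (21.0% higher and 19.3% lower), with medians of -0.26 over the members and -0.03 over all genes. Of those 18 genes 12 belong to the autophagosome, which holds 24 of the 40 members. The response differed between the lines for 12 of the 24 autophagosome genes (0 higher and 12 lower) and for 9 of the 13 lysosome genes (4 higher and 5 lower). The highest autophagosome estimate, 0.51 for GABARAP, was not called. With all 16 LX-2 libraries 8 members differed between the lines, where 14.5% of all genes did.

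The lysosome genes did not move as 1 group. NPC1, which exports cholesterol from the lysosome, rose in both lines, by 1.08 ± 0.09 in LX-2 (188 and 217 CPM in AA_Dep, against 92.9 and 103 in DMSO) and by 0.68 ± 0.05 in HMLE. LAMP1, a main protein of the lysosomal membrane, fell by 0.80 ± 0.07 in LX-2, with 373 and 354 CPM in AA_Dep against 613 and 686 CPM in DMSO, and rose by 0.46 ± 0.04 in HMLE, with 468 and 456 CPM against 337 and 337 CPM. The protease gene CTSB went the same opposite ways, falling by 0.76 ± 0.08 in LX-2 and rising by 0.63 ± 0.05 in HMLE. CTSL, another cathepsin, rose by 0.73 ± 0.10 in LX-2 and fell by 0.43 ± 0.05 in HMLE. The differences of these responses between the lines were -1.29 ± 0.08 for LAMP1 (adjusted p = 1.5e-12), -1.42 ± 0.09 for CTSB (3e-12) and 1.13 ± 0.12 for CTSL (2e-08). CTSD and NPC2 were also called higher in LX-2 and lower in HMLE, but both LX-2 calls were lost without replicate 1 of shCtrl AA_Dep or of shCtrl DMSO, and the HMLE call of CTSD without shCtrl AA_Dep replicate 2.

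**Figure D2:**
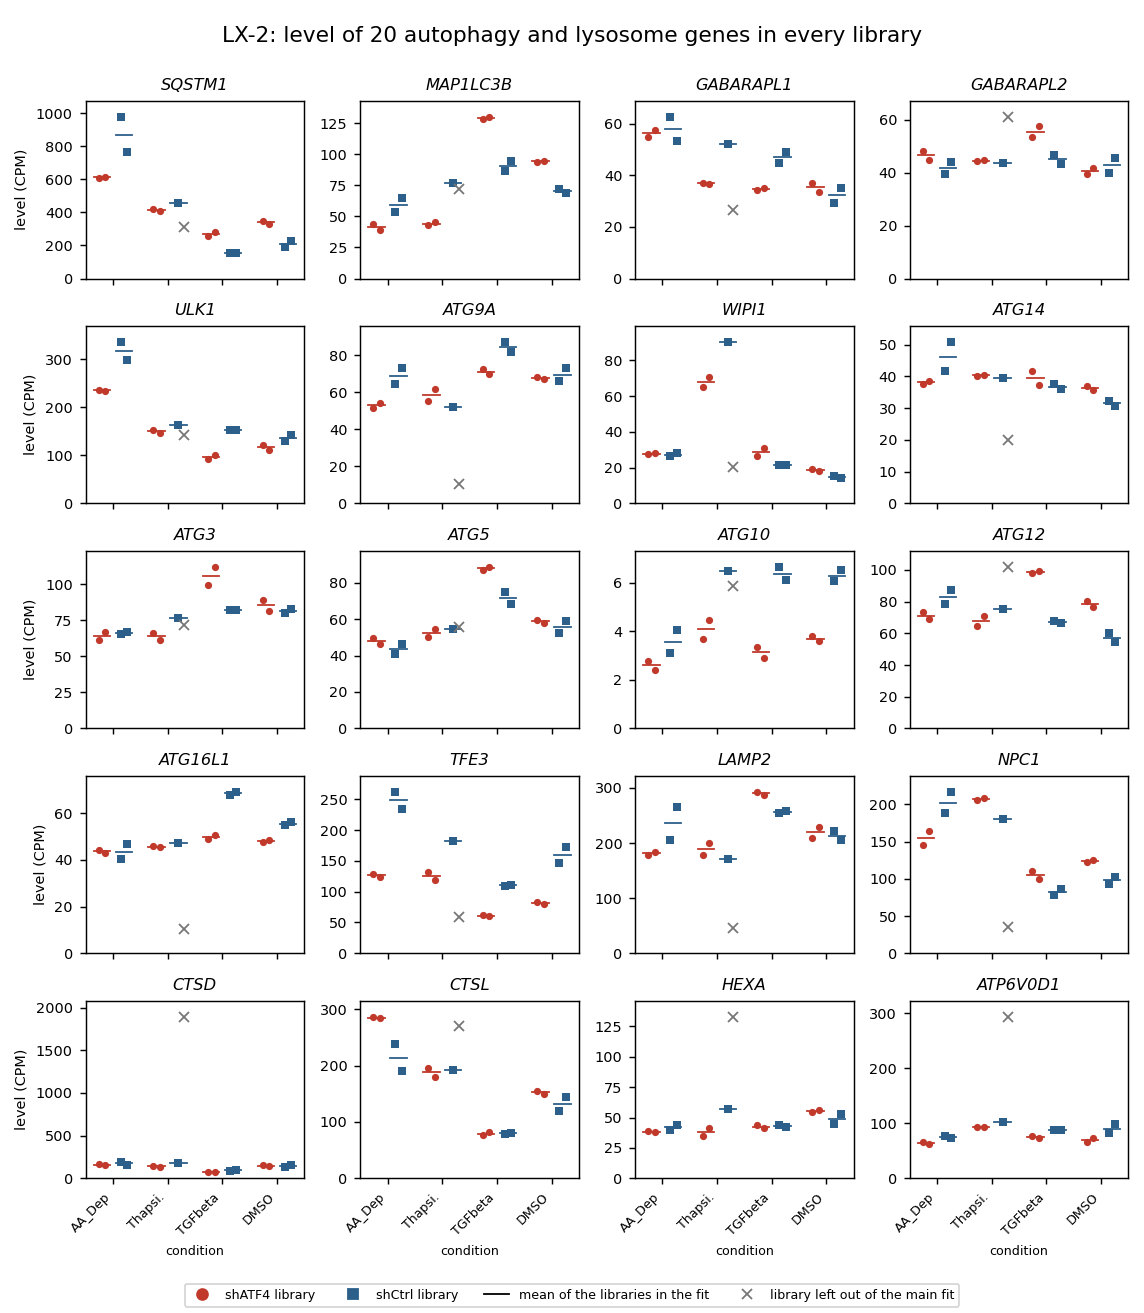
Normalised CPM in LX-2 (vertical axes) of the 20 members called both in a response to a condition and in a comparison or interaction of the shRNAs, by condition, with 1 point per library, shATF4 (red circles) left of shCtrl (blue squares), short lines at group means, and a grey cross for the library left out of the fit. SQSTM1 with shCtrl stands at 978 and 763 CPM in AA_Dep, and WIPI1 at 90.3 CPM in the fitted thapsigargin library, against 15.2 and 14.5 CPM in DMSO.

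In LX-2 shATF4 cells 8 of the 40 members rose and 11 fell in AA_Dep, against a background of 42.4% (20.3% higher and 22.1% lower), with medians of -0.05 over the members and 0.00 over all genes. With all 16 libraries 3 rose (SQSTM1, ULK1 and CTSL) and 3 fell (MAP1LC3B, LAMP1 and CTSB), close to the 4 and 3 of shCtrl cells in that fit. MAP1LC3B had 43.9 and 39.2 CPM in shATF4 AA_Dep, against 93.9 and 94.8 CPM in shATF4 DMSO, a fall of 1.18 on the log2 scale (SE 0.10, adjusted p = 2.9e-07). SQSTM1 rose by 0.85 ± 0.10 with shATF4 and by 2.08 ± 0.10 with shCtrl. The test of the difference between shRNAs called 5 members, all with a smaller or more negative AA_Dep response with shATF4, where 10.6% of all genes differed (3.91% higher and 6.65% lower) and the medians were -0.19 over the members and -0.01 over all genes. They were SQSTM1 (-1.23 ± 0.14, adjusted p = 4.9e-05), MAP1LC3B (-0.95 ± 0.14, 0.00069), NPC1 (-0.75 ± 0.13, 0.0022), ATG12, the ubiquitin-like partner of ATG5 (-0.70 ± 0.13, 0.0035), and ATG14, a subunit of the autophagy lipid kinase (-0.51 ± 0.15, 0.047). The first 4 kept their call when any 1 library of these groups was left out, and ATG14 lost it without each of 7 libraries, with no count filter and with a replicate block. In DMSO the first 4 were called higher with shATF4, by 0.72 for SQSTM1, 0.44 for MAP1LC3B, 0.36 for NPC1 and 0.48 for ATG12. Part of each difference of responses therefore lies in the DMSO level. Except for SQSTM1, each of these DMSO calls was lost without at least 1 library. Without LX-2 shCtrl AA_Dep replicate 1 the count was 14 (3 higher and 11 lower). With all 16 LX-2 libraries edgeR called 0 of the 40 (3 at an unadjusted p under 0.05), with estimates of -1.22 for SQSTM1 and -0.94 for MAP1LC3B. Of all genes it called 0.0675% there.

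Between the shRNAs, LX-2 cells in AA_Dep differed in 8 members, 1 higher and 7 lower with shATF4, against a background of 9.91% (3.87% higher and 6.04% lower), with medians of -0.12 over the members and -0.01 over all genes. SQSTM1 had 611 and 612 CPM with shATF4 and 978 and 763 CPM with shCtrl (-0.51 ± 0.10, adjusted p = 0.0039), and MAP1LC3B had 43.9 and 39.2 CPM with shATF4 and 53.2 and 64.5 CPM with shCtrl (-0.51 ± 0.10, 0.0059). ULK1 had 236 and 234 CPM with shATF4 and 336 and 299 CPM with shCtrl (-0.44 ± 0.08, 0.0032). None of these pairs of groups overlapped. CTSL was the member called higher with shATF4, at 0.41 ± 0.10. The count was 3 without shATF4 AA_Dep replicate 1, 4 without shATF4 replicate 2 and 15 without shCtrl replicate 1. SQSTM1 lost its call without shATF4 replicate 1 and MAP1LC3B without shATF4 replicate 2, and CTSL without either of these or without shCtrl replicate 2. With all 16 libraries edgeR called 0 members and 0.0900% of all genes, and 4 members had an unadjusted p under 0.05.

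In HMLE the AA_Dep response with shATF4 rests on 1 library. There 21 members rose and 6 fell, against a background of 54.1% (25.7% higher and 28.4% lower), with medians of 0.21 over the members and 0.01 over all genes, and ULK1 (2.67 ± 0.11), GABARAPL1 (1.64 ± 0.11), MITF (1.57 ± 0.10), SQSTM1 (1.55 ± 0.06), WIPI1 (1.51 ± 0.16) and NBR1 (1.50 ± 0.07) led. The response differed between the shRNAs for MAP1LC3B (-0.69 ± 0.09, adjusted p = 3.7e-05) and TFE3 (0.42 ± 0.11, 0.029), where 5.09% of all genes differed (2.99% higher and 2.10% lower), and the medians were 0.04 over the members and 0.03 over all genes. MAP1LC3B had 119 CPM in the shATF4 library and 187 and 190 CPM with shCtrl. TFE3 lost its call without any of 5 libraries, by the DESeq2 Wald test and with no count filter, and the count was 1 in those leave-one-out fits and by the DESeq2 Wald test, and 4 with no count filter or with a replicate block. SQSTM1, with 319 CPM with shATF4 and 351 and 343 CPM with shCtrl, had a difference of responses of -0.24 ± 0.08 (adjusted p = 0.074). In levels, 4 members were higher and 8 lower with shATF4 in HMLE AA_Dep, against a background of 16.9% (9.77% higher and 7.09% lower), with medians of 0.00 over the members and 0.03 over all genes, and 7 were called without either shCtrl AA_Dep library. ULK1 had 61.6 CPM with shATF4 and 121 and 109 CPM with shCtrl (-0.90 ± 0.10, adjusted p = 2e-06).

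Thapsigargin raised WIPI1 most in both lines. In LX-2 shCtrl cells WIPI1 had 90.3 CPM in the fitted thapsigargin library, against 15.2 and 14.5 CPM in DMSO, a log2 change of 2.63 ± 0.12 (adjusted p = 1.5e-10). The discordant library held 20.5 CPM, and with all 16 libraries the change was 1.95 and still called. HMLE shCtrl cells had 14.4 and 13.3 CPM of WIPI1 in thapsigargin, against 3.49 and 4.76 CPM in DMSO (1.75 ± 0.14, adjusted p = 1e-08). WIPI1 was called higher in each of the 12 responses to a condition, with log2 changes between 0.56 and 2.63, but with all 16 libraries the LX-2 calls stood in thapsigargin alone (1.95 with shCtrl and 1.87 with shATF4). The share of all genes called higher in all 12 was not counted.

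In LX-2 shCtrl cells 10 members rose and 4 fell in thapsigargin, against a background of 40.5% (20.2% higher and 20.4% lower), with medians of 0.03 over the members and 0.01 over all genes. SQSTM1 had 458 CPM in thapsigargin (313 CPM in the discordant library), against 193 and 227 CPM in DMSO, a change of 1.15 ± 0.12 (adjusted p = 1.2e-06, and 0.97 with all 16 libraries). MCOLN1, a calcium channel of the lysosome whose window held 2 E-box cores, had 64.9 CPM (112 CPM in the discordant library), against 26.9 and 29.4 CPM (1.23 ± 0.12, adjusted p = 8.2e-07, and 1.79 with all 16). NPC1 had 180 CPM, against 92.9 and 103 CPM (0.91 ± 0.11), but 34.7 CPM in the discordant library, and was not called with all 16 (0.18). Among the falling genes, CTSB had 139 CPM (142 CPM in the discordant library), against 315 and 359 CPM in DMSO (-1.25 ± 0.10, adjusted p = 9.6e-08), and LAMP1, with 6 cores in its window, had 315 CPM (402 CPM), against 613 and 686 CPM (-1.02 ± 0.08, 1.3e-07). Both remained called with all 16 libraries, at -1.15 and -0.73. NPC2 was called lower at -0.30 ± 0.11 and reversed to 1.07 with all 16. The count with all 16 was 13, where 34.4% of all genes were called.

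HMLE shCtrl cells had 10 members higher and 4 lower in thapsigargin, against a background of 36.8% (18.6% higher and 18.2% lower), with medians of 0.08 over the members and 0.00 over all genes. After WIPI1, NPC1 rose by 0.70 ± 0.05 (167 and 154 CPM in thapsigargin, against 99.6 and 97.5 in DMSO) and MAP1LC3B by 0.66 ± 0.05 (135 and 142 CPM, against 84.4 and 89.7). MITF (0.44 ± 0.11), ATG13 (0.38 ± 0.06), GABARAPL1 (0.31 ± 0.10) and SQSTM1 (0.25 ± 0.05) rose less. GABARAPL1 lost its call without any of 3 libraries and by the DESeq2 Wald test, and the count was 9 without shCtrl DMSO replicate 1. Tested between the lines, the LX-2 response minus the HMLE response was called higher for 4 members and lower for 7. The background was 27.7% (12.8% higher and 14.9% lower), with medians of -0.03 over the members and 0.00 over all genes. MCOLN1 (1.30 ± 0.15), SQSTM1 (0.88 ± 0.13) and WIPI1 (0.87 ± 0.18) were among the higher. CTSB (-1.14 ± 0.11) and LAMP1 (-0.89 ± 0.09), among the lower, were called lower in both lines and fell further in LX-2. Their HMLE calls were lost without any of 4 libraries for CTSB and any of 3 for LAMP1. WIPI1 was no longer called there with all 16 LX-2 libraries (0.16), and TFEB, called at -0.97 ± 0.35, reversed to 0.33 and lost its call without any of 5 libraries.

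**Figure D3:**
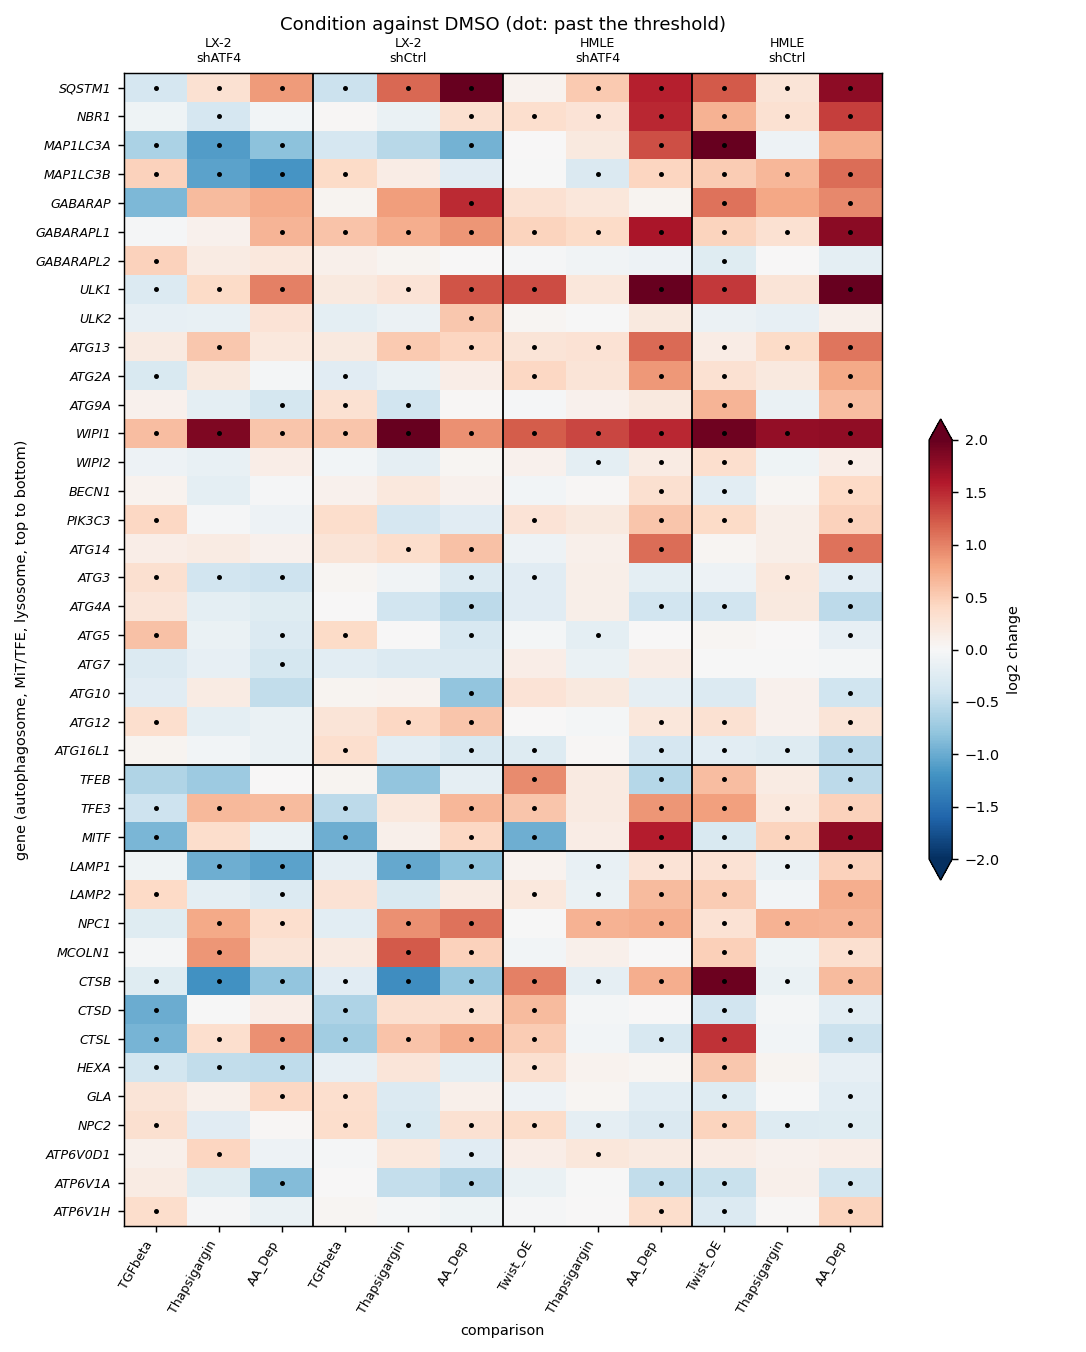
Log2 change of each of the 40 members (rows: autophagosome, MiT/TFE and lysosome genes) for each condition against DMSO (columns, by line and shRNA), coloured from -2 to 2, with a dot where the adjusted p is under 0.05. WIPI1 is higher in all 12 columns, from 0.56 to 2.63, and CTSB is lower in LX-2 thapsigargin and AA_Dep and higher in HMLE Twist_OE and AA_Dep.

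MAP1LC3B was the member whose thapsigargin response differed most between the shRNAs, in both lines. LX-2 shATF4 cells had 42.7 and 45.7 CPM of MAP1LC3B in thapsigargin, against 93.9 and 94.8 CPM in DMSO, a change of -1.07 ± 0.10 (adjusted p = 7.2e-07). LX-2 shCtrl cells had 76.8 CPM in the fitted thapsigargin library and 71.9 CPM in the discordant one, against 72 and 68.9 CPM in DMSO. The difference of the 2 responses was -1.22 ± 0.16 (adjusted p = 0.0002), and -1.26 with all 16 libraries (0.048). HMLE shATF4 cells had 69.8 and 76.6 CPM in thapsigargin, against 90.7 and 87.5 CPM in DMSO (-0.29 ± 0.06), where HMLE shCtrl cells had 135 and 142 CPM, against 84.4 and 89.7 CPM. The HMLE difference was -0.95 ± 0.08 (adjusted p = 3.7e-07). MAP1LC3B has a near-identical copy, MAP1LC3B2, which took between 1.74% and 5.84% of the counts of both genes, so the split of counts between them is uncertain.

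Other members differed between the shRNAs in LX-2 thapsigargin. Of the 40 members 6 had a lower response with shATF4 and 0 a higher one, where 6.13% of all genes differed (3.67% higher and 2.46% lower), with medians of 0.02 over the members and 0.00 over all genes. After MAP1LC3B they were SQSTM1 (-0.84 ± 0.15, adjusted p = 0.0035), WIPI1 (-0.76 ± 0.16, 0.01), HEXA, a subunit of a glycosidase (-0.74 ± 0.17, 0.014), GABARAPL1 (-0.63 ± 0.17, 0.037) and ATG12 (-0.60 ± 0.15, 0.023). SQSTM1 had 421 and 411 CPM in shATF4 thapsigargin, against 349 and 332 CPM in shATF4 DMSO, so its smaller response came with a higher DMSO level. MAP1LC3B, WIPI1 and ATG12 were likewise called higher with shATF4 in DMSO. In this fit the shCtrl thapsigargin group held 1 library. With all 16 libraries MAP1LC3B alone of these members was called, where 0.270% of all genes were. The WIPI1 changes with shATF4 and with shCtrl then lay close together, as given above. The count was 3 without shATF4 DMSO replicate 2 or without shATF4 thapsigargin replicate 1, and 1 with all 16 libraries. HEXA lost its call without any of 3 libraries, ATG12 without any of 4 and GABARAPL1 without any of 5 and with a replicate block. In HMLE the thapsigargin response of 2 members differed, against a background of 4.56% (2.16% higher and 2.40% lower), with medians of -0.02 over the members and 0.01 over all genes. Beside MAP1LC3B this was SQSTM1 at 0.28 ± 0.07 (adjusted p = 0.021), which has the opposite sign to LX-2 and lost its call without any of 5 libraries.

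Within shATF4 cells, thapsigargin raised 9 and lowered 7 members in LX-2 (background 37.1%, 17.8% higher and 19.2% lower, medians -0.04 over the members and 0.01 over all genes) and raised 7 and lowered 7 in HMLE (background 32.5%, 16.8% higher and 15.7% lower, medians 0.10 and 0.00). WIPI1 rose by 1.87 ± 0.11 in LX-2 and by 1.33 ± 0.14 in HMLE, and NPC1 by 0.76 ± 0.09 and 0.70 ± 0.05. CTSB fell by 1.21 ± 0.08 and LAMP1 by 0.97 ± 0.07 in LX-2, near their shCtrl changes. MAP1LC3A, a second LC3 gene, fell by 1.11 ± 0.21 in LX-2. SQSTM1 rose by 0.53 ± 0.05 in HMLE and by 0.31 ± 0.10 in LX-2, where it lost its call without any of 4 libraries. The fit with all 16 LX-2 libraries called 7.86% of all genes in LX-2. With all 16 libraries the LX-2 count was 4, and the HMLE count was 8 without shATF4 DMSO replicate 2 and 9 without shATF4 thapsigargin replicate 1. Comparing the shRNAs within thapsigargin, 0 members were higher and 4 lower with shATF4 in LX-2, against a background of 5.20% (3.11% higher and 2.09% lower), with medians of 0.00 over the members and 0.01 over all genes. They were MAP1LC3B (-0.78 ± 0.12, adjusted p = 0.0012), HEXA (-0.54 ± 0.13, 0.021), TFE3 (-0.52 ± 0.10, 0.0085) and GABARAPL1 (-0.48 ± 0.13, 0.042). The count was 2 without either shATF4 library and 0 by edgeR with all 16 libraries (16 at an unadjusted p under 0.05), where the TFE3 estimate reversed to 0.02. Of all genes the fit with all 16 libraries called 0.231%. HEXA lost its call without shATF4 replicate 1, TFE3 without shATF4 replicate 2, and GABARAPL1 without either or with a replicate block.

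TGFbeta in LX-2 moved members in both directions. In shCtrl cells 8 members rose and 7 fell against DMSO (background 22.1%, 11.1% higher and 11.0% lower, medians 0.04 over the members and 0.00 over all genes), and in shATF4 cells 10 rose and 10 fell (background 27.6%, 13.5% higher and 14.1% lower, medians -0.03 and -0.02). Of the MiT/TFE factors 2 of 3 fell with either shRNA. MITF had 11.7 and 11.6 CPM in shATF4 TGFbeta, against 21.1 and 22.8 CPM in shATF4 DMSO (-0.91 ± 0.16), and 10.5 and 10.6 CPM in shCtrl TGFbeta, against 21.6 and 20.5 CPM in shCtrl DMSO (-0.97 ± 0.17, adjusted p = 0.00049). TFE3 fell by 0.41 ± 0.09 with shATF4 and by 0.52 ± 0.09 with shCtrl. The cathepsin genes CTSD and CTSL fell by 0.99 ± 0.11 and 0.93 ± 0.10 with shATF4 and by 0.61 ± 0.11 and 0.70 ± 0.10 with shCtrl. SQSTM1 fell by 0.34 ± 0.10 with shATF4 and by 0.43 ± 0.10 with shCtrl, and lost that call without either of 2 libraries in each case. WIPI1 rose by 0.61 ± 0.11 and 0.56 ± 0.11, ATG5 by 0.58 ± 0.10 with shATF4, and GABARAPL1 by 0.57 ± 0.11 with shCtrl, while MAP1LC3A (-0.64 ± 0.20 with shATF4) lost its call without any of 4 libraries. The shCtrl count was 8 without shCtrl DMSO replicate 2 or either shCtrl TGFbeta library. The shATF4 count was 9 without replicate 1 of shATF4 DMSO or TGFbeta and 13 without replicate 2 of either. The TGFbeta response differed between the shRNAs for 0 of 40 members by edgeR and 0 by the DESeq2 Wald test, with 6 members at an unadjusted p under 0.05, where 0.987% of all genes differed (0.563% higher and 0.424% lower) and the medians were -0.03 over the members and -0.01 over all genes. With all 16 libraries edgeR called 0 members in each of these 3 comparisons. Of all genes it called 3.15% for shCtrl cells, 2.42% for shATF4 cells and 0% for the difference of responses. The members at an unadjusted p under 0.05 were 6 for shCtrl cells, 5 for shATF4 cells and 1 for the difference of responses.

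In LX-2 without stress the direction of SQSTM1 and MAP1LC3B was the other one. In DMSO 5 members were higher and 3 lower with shATF4 (background 11.6%, 6.28% higher and 5.30% lower, medians 0.10 over the members and 0.01 over all genes). SQSTM1 had 349 and 332 CPM with shATF4 and 193 and 227 CPM with shCtrl (0.72 ± 0.10, adjusted p = 0.0002). MAP1LC3B had 93.9 and 94.8 CPM with shATF4 and 72 and 68.9 CPM with shCtrl (0.44 ± 0.10, 0.0093), and ATG12 80.5 and 76.6 CPM with shATF4 and 60.1 and 54.5 CPM with shCtrl (0.48 ± 0.09, 0.0035). The groups did not overlap for any of these genes. In TGFbeta 8 members were higher and 7 lower with shATF4 (background 21.7%, 10.9% higher and 10.7% lower, medians 0.10 over the members and -0.01 over all genes), among them SQSTM1 at 255 and 282 CPM with shATF4 and 154 and 153 CPM with shCtrl (0.80 ± 0.10, 3.4e-05), MAP1LC3B (0.51 ± 0.10), ATG12 (0.56 ± 0.09) and ULK1 (-0.67 ± 0.08). ATG10, the conjugating enzyme for ATG12, was lower in DMSO (-0.75 ± 0.19) and in TGFbeta (-1.02 ± 0.20). The DMSO count was 3 without either shATF4 library, 5 without shCtrl replicate 1 and 2 without shCtrl replicate 2. ATG10 and WIPI1 (0.37 ± 0.11) lost their DMSO calls without any of the 4 libraries, and WIPI1 also by the DESeq2 Wald test, with no filter and with a replicate block. MAP1LC3B lost its DMSO call without any of 3 libraries and ATG12 without shCtrl replicate 2. The TGFbeta count was 8 or 9 without any 1 of its 4 libraries. With all 16 libraries edgeR called 0 members in DMSO (5 at an unadjusted p under 0.05) and 1 in TGFbeta, ULK1. Of all genes it called 0.242% in DMSO and 1.29% in TGFbeta.

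TFE3 was called lower with shATF4 in all 8 comparisons of the shRNAs, with log2 changes between -1.35 and -0.52. The 4 LX-2 calls rest on the discordant library being left out: with all 16 libraries the estimates were -0.98 in AA_Dep, 0.02 in thapsigargin, -0.85 in TGFbeta and -0.96 in DMSO, with adjusted p between 0.35 and 0.97. In HMLE DMSO it had 27.7 and 27.8 CPM with shATF4 and 56.9 and 60 CPM with shCtrl (-1.08 ± 0.07, adjusted p = 5.4e-09), and in LX-2 DMSO it had 83.3 and 79.4 CPM with shATF4 and 147 and 172 CPM with shCtrl (-0.95 ± 0.09, 3.7e-06). In LX-2 AA_Dep TFE3 had 129 and 124 CPM with shATF4 and 262 and 234 CPM with shCtrl (-0.97 ± 0.09). No shATF4 library reached a shCtrl library of its condition, except beside the discordant thapsigargin library, which held 59.2 CPM against 132 and 119 CPM with shATF4. ULK1, ATG10, TFEB and ATP6V0D1, a subunit of the proton pump that acidifies the lysosome, had lower estimates with shATF4 in all 8 comparisons and were called in 6, 5, 4 and 3 of them. The LX-2 estimates of these 4 genes were negative with all 16 libraries as well, and ULK1 in TGFbeta was the 1 LX-2 call. The share of all genes called in 1 direction as often as TFE3 or these 4 genes was not counted. MITF was called higher with shATF4 in the 4 HMLE comparisons. It had 31.9 and 28.6 CPM in shATF4 DMSO and 13.9 and 13.4 CPM in shCtrl DMSO (1.14 ± 0.10, adjusted p = 3e-07), while in LX-2 DMSO it had 21.1 and 22.8 CPM with shATF4 and 21.6 and 20.5 CPM with shCtrl. The shATF4 effect on MITF differed between the lines in DMSO by -1.09 ± 0.19 (adjusted p = 0.00062, and 0.78 with all 16 LX-2 libraries).

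In HMLE DMSO 4 members were higher and 7 lower with shATF4 (background 12.8%, 6.08% higher and 6.72% lower, medians 0.01 over the members and -0.01 over all genes), and in HMLE thapsigargin 7 were higher and 12 lower (background 24.3%, 12.3% higher and 11.9% lower, medians -0.02 and 0.01). ATG9A, the scramblase of autophagosome seed vesicles, had 41 and 37.6 CPM in shATF4 DMSO and 23.8 and 26.7 CPM in shCtrl DMSO (0.64 ± 0.08, adjusted p = 3.2e-05), and 41.6 and 42.3 CPM in shATF4 thapsigargin and 22.9 and 22.9 CPM in shCtrl thapsigargin (0.87 ± 0.08). ATG10 had 4.71 and 4.99 CPM in shATF4 DMSO and 9.39 and 8.73 CPM in shCtrl DMSO (-0.90 ± 0.16, 0.00069). Neither gene's groups overlapped. SQSTM1 was not called in DMSO (0.12 ± 0.05, adjusted p = 0.12) and was higher with shATF4 in thapsigargin (0.41 ± 0.05, 4.3e-06). The DMSO count was 7 without shATF4 DMSO replicate 2, without which TFEB (-0.49 ± 0.11) and ULK1 (-0.47 ± 0.11) lost their calls, ULK1 also without shCtrl DMSO replicate 1. In AA_Dep the ATG10 (-0.68 ± 0.22) and TFEB (-0.54 ± 0.16) calls were lost without either shCtrl library and by the DESeq2 Wald test. Across the lines, the shATF4 effect in DMSO differed for 4 members upwards and 3 downwards in LX-2 against HMLE, where 6.28% of genes differed (3.12% higher and 3.16% lower), with medians of 0.08 over the members and -0.01 over all genes. These included SQSTM1 (0.56 ± 0.12, adjusted p = 0.0033) and ATG9A (-0.69 ± 0.13, 0.001). The count was 3 or 4 without any of HMLE's 4 DMSO libraries or LX-2 shATF4 DMSO replicate 1, and 0 by edgeR with all 16 LX-2 libraries (5 at an unadjusted p under 0.05). Of all genes the fit with all 16 LX-2 libraries called 0.367%. CTSD (0.48 ± 0.13), CTSL (0.45 ± 0.12) and GLA (-0.49 ± 0.13) lost their calls without any of at least 5 libraries.

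**Figure D4:**
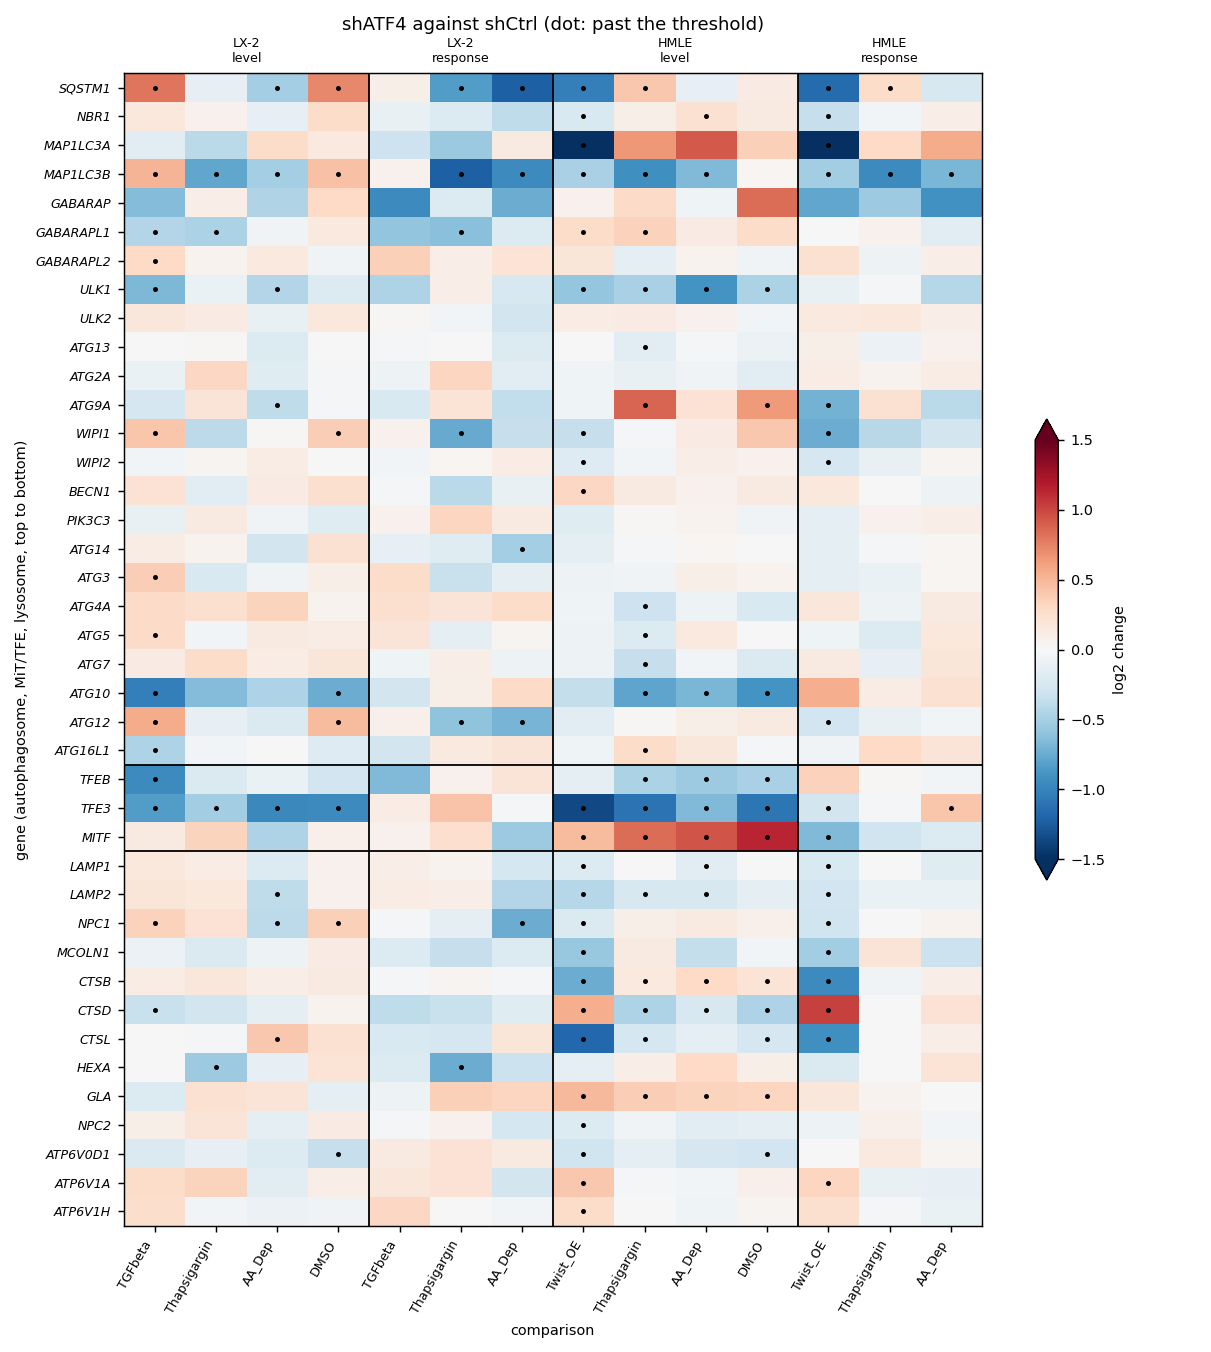
Log2 change with shATF4 against shCtrl for each member (rows), within each condition and as the difference of the response to each condition (columns, by line), coloured from -1.5 to 1.5, with a dot where the adjusted p is under 0.05. TFE3 is lower in all 8 columns of levels (in LX-2 thapsigargin it turns to 0.02 with all 16 libraries), and MAP1LC3B is lower in the thapsigargin and AA_Dep response columns of both lines, between -1.22 and -0.69.

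Twist_OE in HMLE was called for 33 members with shCtrl and 18 with shATF4, and its libraries differed between the shRNAs in more than ATF4. TWIST1 had 32.2 and 32.7 CPM in shATF4 Twist_OE and 130 and 145 CPM in shCtrl Twist_OE. The 9 epithelial markers summed to 8304 to 8708 CPM in shATF4 Twist_OE and to 1790 to 1855 CPM in shCtrl Twist_OE, against 9970 to 10269 CPM in shATF4 DMSO and 10170 to 10187 CPM in shCtrl DMSO. The 9 stellate markers, collagens and VIM among them, summed to 1001 to 1030 CPM in shATF4 Twist_OE and to 3675 to 3847 CPM in shCtrl Twist_OE. All 9 epithelial markers were called higher and all 8 tested stellate markers lower with shATF4. The part of TWIST1 and of these markers in the results that follow was not tested.

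In HMLE shCtrl cells Twist_OE raised 24 members and lowered 9 against DMSO (background 57.2%, 28.3% higher and 28.9% lower, medians 0.31 over the members and 0.00 over all genes). CTSB had 1152 and 1136 CPM in Twist_OE, against 297 and 292 CPM in DMSO (1.96 ± 0.05, adjusted p = 3.2e-17), and CTSL had 309 and 291 CPM, against 113 and 110 CPM (1.44 ± 0.05, 4.4e-15). SQSTM1 had 238 and 227 CPM, against 99.2 and 101 CPM (1.22 ± 0.05, 6.5e-14). All 3 genes were outside the range of DMSO in both libraries. WIPI1 (1.95 ± 0.14), ULK1 (1.42 ± 0.09) and MAP1LC3A (2.85 ± 0.40, at 2.15 and 2.56 CPM against 0.236 and 0.418 CPM) rose as well, as did all 4 genes of the lysosomal membrane, while the proton pump subunits ATP6V1A and ATP6V1H fell. In shATF4 cells Twist_OE raised 15 members and lowered 3 (background 35.3%, 18.2% higher and 17.2% lower, medians 0.07 and 0.01), led by ULK1 (1.30 ± 0.10), WIPI1 (1.21 ± 0.14), CTSB (704 and 662 CPM, against 348 and 333 CPM), MITF (-0.97 ± 0.10), TFEB (0.95 ± 0.10) and CTSD (0.63 ± 0.06). SQSTM1 was not called in shATF4 cells, with 116 and 114 CPM in Twist_OE against 112 and 107 CPM in DMSO (0.07 ± 0.05, adjusted p = 0.31).

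The Twist_OE response differed between the shRNAs for 18 members, 2 higher and 16 lower with shATF4 (background 29.7%, 16.3% higher and 13.4% lower, medians -0.13 over the members and 0.00 over all genes). MAP1LC3A (-2.84 ± 0.65), SQSTM1 (-1.15 ± 0.07, adjusted p = 1.2e-10), CTSB (-0.96 ± 0.06, 7e-10), CTSL (-0.92 ± 0.07, 2.6e-09) and WIPI1 (-0.74 ± 0.20) had lower responses, and CTSD (1.02 ± 0.08, 7.2e-09) a higher one, as did the proton pump subunit ATP6V1A, whose call was lost without any of 4 libraries. CTSD had 224 and 227 CPM in shATF4 Twist_OE, against 147 and 143 CPM in shATF4 DMSO, and 160 and 146 CPM in shCtrl Twist_OE, against 197 and 202 CPM in shCtrl DMSO, so the cathepsin genes did not move together. WIPI1 lost its call without shCtrl DMSO replicate 1. In levels under Twist_OE 7 members were higher and 16 lower with shATF4 (background 47.2%, 23.3% higher and 23.9% lower, medians -0.14 over the members and -0.02 over all genes), with 4 higher and 8 lower among the 13 lysosome genes. CTSL had 135 and 132 CPM with shATF4 and 309 and 291 CPM with shCtrl (-1.18 ± 0.05, adjusted p = 1.5e-13), CTSB 704 and 662 CPM with shATF4 and 1152 and 1136 CPM with shCtrl (-0.75 ± 0.05), and SQSTM1 116 and 114 CPM with shATF4 and 238 and 227 CPM with shCtrl (-1.02 ± 0.05). TFE3 (-1.35 ± 0.07), ULK1 (-0.58 ± 0.09) and MAP1LC3A (-2.48 ± 0.38) were lower too.

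**Figure D5:**
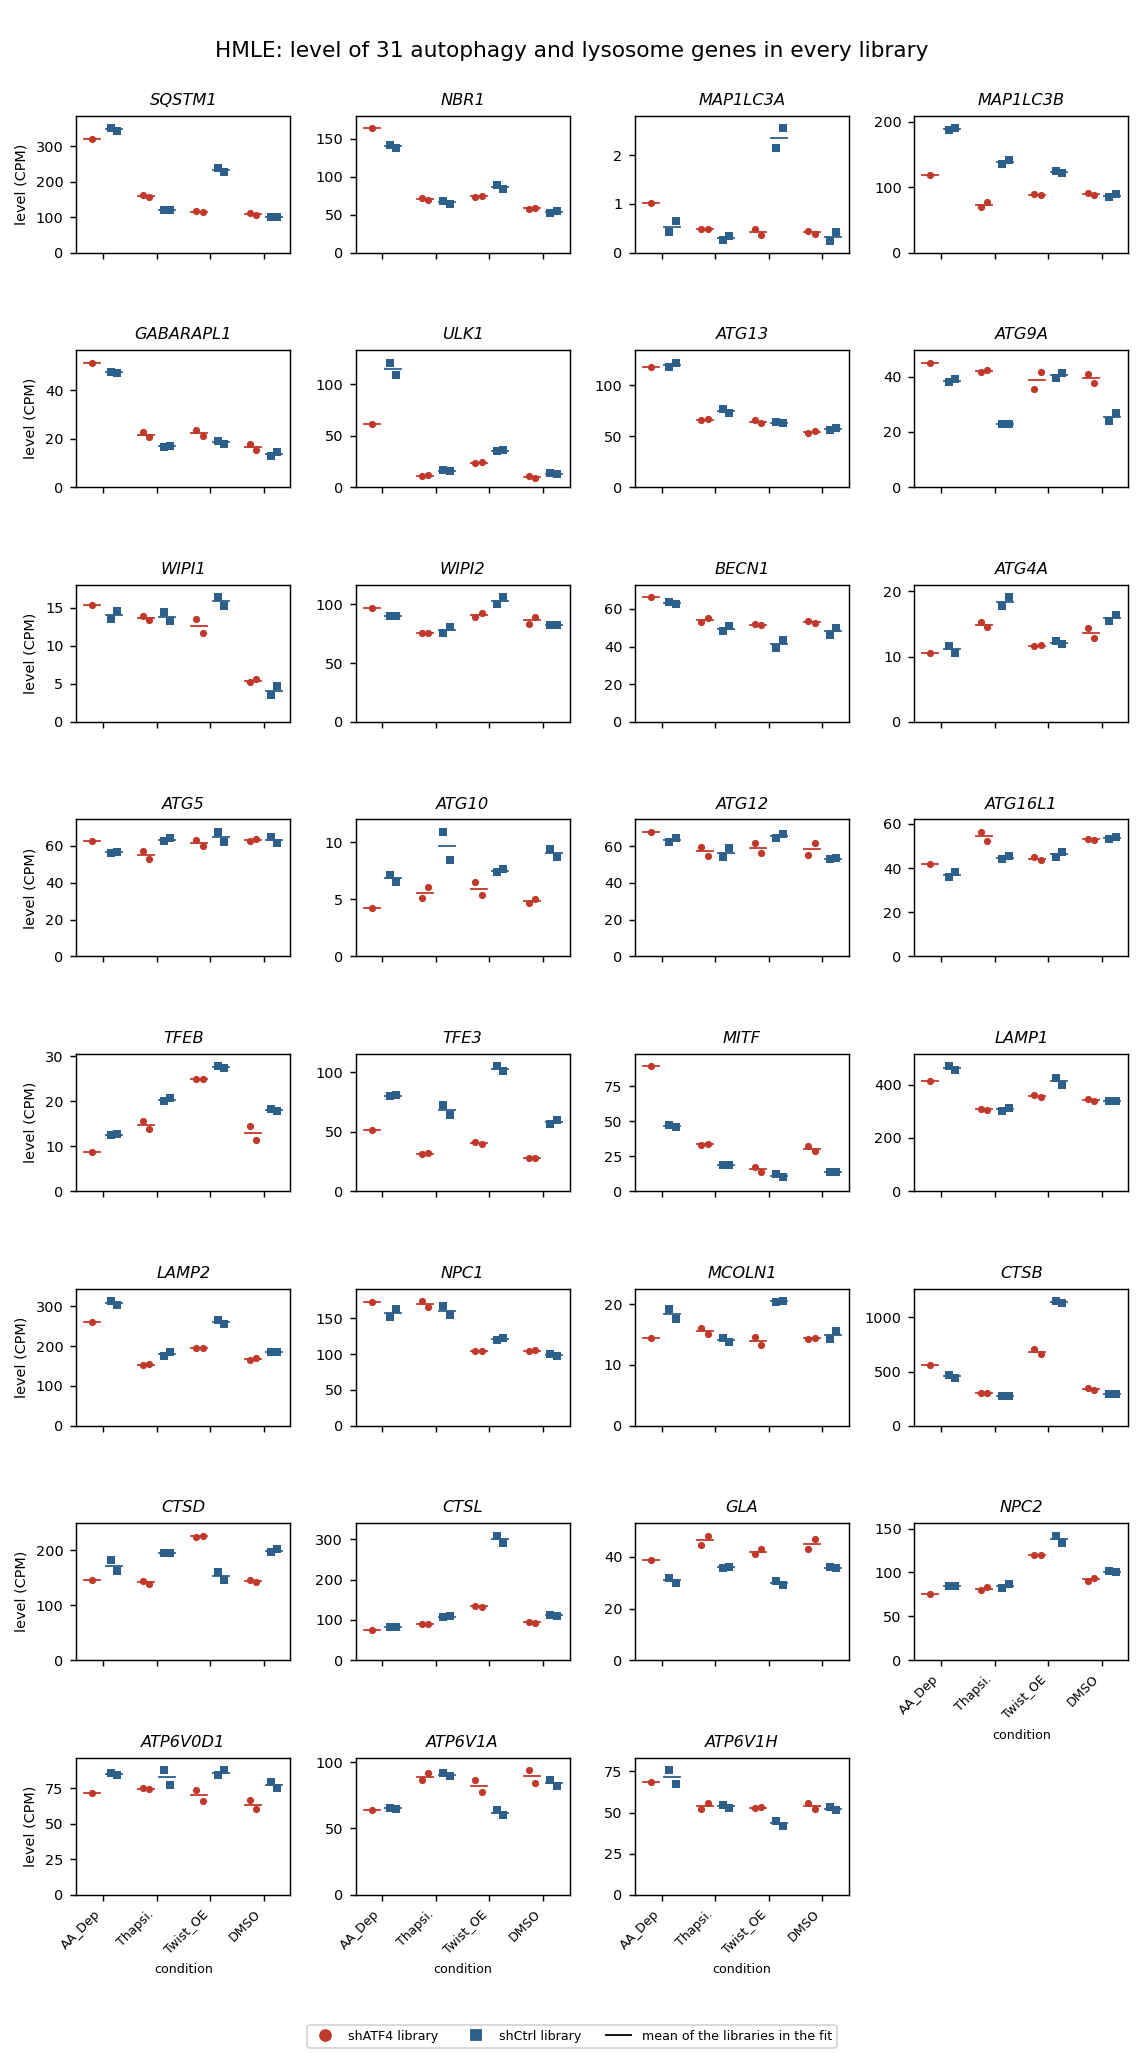
Normalised CPM in HMLE (vertical axes) of the 31 members called both in a response to a condition and in a comparison or interaction of the shRNAs, by condition, with 1 point per library, shATF4 (red circles) left of shCtrl (blue squares) and short lines at group means, and 1 library for shATF4 AA_Dep. CTSB with shCtrl stands at 1152 and 1136 CPM under Twist_OE, against 704 and 662 CPM with shATF4, and TFE3 is lower with shATF4 in every condition.

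Among the other members of LX-2, ATG5 was called higher in TGFbeta and lower in AA_Dep with either shRNA. ATG5, which with ATG12 forms the ligase for LC3, had 87.1 and 88.8 CPM in shATF4 TGFbeta and 74.8 and 68.5 CPM in shCtrl TGFbeta, against 59.8 and 58 CPM in shATF4 DMSO and 52.4 and 58.8 CPM in shCtrl DMSO. The shCtrl TGFbeta call of ATG5 was lost without replicate 1 of shCtrl DMSO or of shCtrl TGFbeta. ATG5 in AA_Dep had 49.9 and 46.6 CPM with shATF4 and 40.8 and 46.5 CPM with shCtrl, below every DMSO library. The shATF4 AA_Dep call was lost without any 1 of the 4 libraries and the shCtrl AA_Dep call without either of 2. ATG16L1, which places that ligase on the membrane, had 49 and 50.7 CPM in shATF4 TGFbeta and 67.9 and 69.1 CPM in shCtrl TGFbeta (-0.46 ± 0.09, adjusted p = 0.0019). GABARAPL1 in TGFbeta had 34.5 and 35 CPM with shATF4 and 44.9 and 49.2 CPM with shCtrl (-0.44 ± 0.11, 0.0082). For both genes no shATF4 library reached a shCtrl library. LAMP2, the partner of LAMP1, had 179 and 184 CPM in shATF4 AA_Dep and 206 and 265 CPM in shCtrl AA_Dep (-0.38 ± 0.10, 0.032). ATP6V0D1 had 66.5 and 73.3 CPM in shATF4 DMSO and 82.2 and 98.1 CPM in shCtrl DMSO (-0.34 ± 0.09, 0.021). The calls of GABARAPL1, LAMP2 and ATP6V0D1 were lost without either shATF4 library or without shCtrl replicate 2 of the condition, and none of the 5 genes' calls stood with all 16 libraries. Each of the 40 members was called in at least 1 of the 30 comparisons. The share of all genes called at least once was not counted, and a single comparison, LX-2 against HMLE in DMSO, called 70.4% of them. ULK2 was called in 1 comparison, LX-2 shCtrl AA_Dep against DMSO (0.54 ± 0.14), a call lost without shCtrl DMSO replicate 2.

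Several other lysosome members of HMLE were called between the shRNAs as well as between conditions. LAMP2 had 260 CPM in shATF4 AA_Dep and 313 and 302 CPM in shCtrl AA_Dep, against 166 and 171 CPM in shATF4 DMSO and 185 and 186 CPM in shCtrl DMSO. GLA, a lysosomal galactosidase, had 43.1 and 46.8 CPM in shATF4 DMSO and 36 and 35.7 CPM in shCtrl DMSO (0.32 ± 0.07, adjusted p = 0.0039), and was called higher with shATF4 in the 4 HMLE conditions, in DMSO not without shATF4 replicate 2 and in AA_Dep not without shCtrl replicate 2. NPC2, which passes cholesterol to NPC1, had 120 and 120 CPM in shATF4 Twist_OE and 142 and 134 CPM in shCtrl Twist_OE (-0.21 ± 0.05, 0.0018). LAMP2, GLA and NPC2 differed by less than 0.5 on the log2 scale between the shRNAs in each HMLE condition. The pump subunits went apart from each other in AA_Dep: ATP6V1H had 75.7 and 67.4 CPM in shCtrl AA_Dep, against 53.4 and 51.4 CPM in shCtrl DMSO (0.45 ± 0.07), and ATP6V1A had 65.2 and 64.9 CPM, against 86.1 and 81.9 CPM (-0.37 ± 0.07). BECN1, the scaffold of the autophagy lipid kinase, had 51.9 and 51.2 CPM in shATF4 Twist_OE and 39.5 and 43.4 CPM in shCtrl Twist_OE (0.31 ± 0.07, adjusted p = 0.00073), and ATG13, a partner of ULK1, had 118 CPM in shATF4 AA_Dep and 118 and 122 CPM in shCtrl AA_Dep, against 52.7 and 55.2 CPM in shATF4 DMSO and 55.9 and 58.5 CPM in shCtrl DMSO.

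In DMSO the share of members that differed between the lines was near that of all genes. With shCtrl 21 members were higher and 9 lower in LX-2 than in HMLE, against a background of 70.4% (35.9% higher and 34.5% lower), with medians of 0.20 over the members and 0.07 over all genes. The MAP1LC3A difference was 6.42 ± 0.31 (adjusted p = 3.5e-16), with 0.236 and 0.418 CPM in HMLE. ULK1 was higher in LX-2 by 3.35 ± 0.10, WIPI1 by 1.85 ± 0.13, ATG2A, which transfers lipid to the growing membrane, by 1.64 ± 0.09, and ATG9A by 1.46 ± 0.09. TFEB was lower in LX-2 (-1.96 ± 0.20), while TFE3 (1.45 ± 0.08) and MITF (0.62 ± 0.14) were higher. With all 16 LX-2 libraries 20 members were called, and 51.5% of all genes.

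A further 104 genes of the same pathways were listed by role, of which 103 were tested in LX-2 and 104 in HMLE. In AA_Dep against DMSO 33 of them rose and 25 fell in LX-2 shCtrl cells (56.3% called, against 45.6% of all genes, median 0.11), and 44 rose and 32 fell in HMLE shCtrl cells (73.1% against 61.7%, median 0.15). In thapsigargin 42 rose and 25 fell in LX-2 shCtrl cells (65% against 40.5%, median 0.17), and 21 rose and 21 fell in HMLE shCtrl cells (40.4% against 36.8%, median 0.01). RRAGD, a GTPase that recruits mTORC1 and TFE factors to the lysosome, rose in LX-2 shCtrl cells by 2.66 ± 0.15 in AA_Dep and by 2.71 ± 0.17 in thapsigargin. With shATF4 RRAGD had 31.2 and 31.3 CPM in AA_Dep and 17.6 and 20.6 CPM in DMSO, against 38.2 and 42.9 CPM in shCtrl AA_Dep and 7.07 and 5.98 CPM in shCtrl DMSO. Its response with shATF4 minus that with shCtrl was -1.95 ± 0.20 in AA_Dep (adjusted p = 2.2e-05) and -1.72 ± 0.22 in thapsigargin (0.0002). In DMSO RRAGD was higher with shATF4 by 1.57 ± 0.15. With all 16 libraries the shCtrl rises of RRAGD were called, and its differences between shRNAs were not (adjusted p of 0.43 for AA_Dep, 0.097 for thapsigargin and 0.2 for DMSO). CALCOCO2, another cargo receptor, had 35.6 CPM in HMLE shATF4 AA_Dep and 83.3 and 74.7 CPM in HMLE shCtrl AA_Dep (-1.15 ± 0.11, adjusted p = 4.9e-07). The difference between shRNAs in the response to AA_Dep was called for 5 of the 103 upwards and 18 downwards in LX-2 (22.3% against 10.6%, median -0.17), and for 0 upwards and 4 downwards of 104 in HMLE (3.85% against 5.09%). In HMLE Twist_OE 22 were higher and 47 lower with shATF4 (66.3% against 47.2%, median -0.14).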

How the data were processed

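RNA-seq of 32 samples was used, and 9 ChIP samples were not analysed here. The deposited values are counts, whole numbers for 58735 genes per sample. Per the labels' protocols a Qiagen RNeasy kit served for RNA extraction and a SMARTer mRNA-Seq kit for the libraries. Per the submitters' processing notes the tools were featureCounts, STAR, DESeq, cutadapt, HOMER and Bowtie2 and the builds hg38 and hg19, and neither their versions nor which build served the counts is given in the sources used here, nor whether counting used strand. Blank lines (452 per LX-2 file and 110 per HMLE file) held no gene.

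Counts were analysed in R 4.3.3 with edgeR 4.0.16 (limma 3.58.1). Genes were kept by filterByExpr (18649 for LX-2, 17940 for HMLE, 20308 for the joint fit), TMM-scaled and tested by the quasi-likelihood F test with 1 mean per group, 1 fit per line and 1 over both lines, with Benjamini-Hochberg adjustment over all genes tested and a threshold of 0.05. Dividing the size of the log2 change by the root of F gave its SE. Differences of responses were tested as interactions. Nothing states that replicates were separate cultures, so p-values measure the spread between these samples, which may be technical. Comparisons that share DMSO or shCtrl libraries are not independent. The fit was tested on simulated data.

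The members and gene lists were chosen with earlier results of these data known, and 3 of the 30 comparisons, those of responses and of the shATF4 effect between lines, were added after the data were seen. Named in each comparison were up to 6 called members with the largest change, SQSTM1, and for the wider list up to 3 genes. Values in every library are plotted for the 20 LX-2 and 31 HMLE members called both in a response to a condition and in a comparison or interaction of the shRNAs in that line. Members named beyond this were chosen after their values were seen. Alternatives were DESeq2's size factors, no count filter, the Wald test of DESeq2 1.42.0, a replicate block, all 16 LX-2 libraries, and leaving out each library in turn. Promoter windows are from RefSeq, GRCh38.p14.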

Additional observations from a re-analysis of the deposited data

Results flagged for a closer look

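Responses that differed between the shRNAs or between the lines were picked out by the test of the difference itself (edgeR's quasi-likelihood interaction, adjusted p under 0.05), and 39 such differences of up to 6 members per comparison, in log2 units, are given. In LX-2 thapsigargin the response with shATF4 minus that with shCtrl was -1.22 for MAP1LC3B, -0.84 for SQSTM1, -0.76 for WIPI1, -0.74 for HEXA, -0.63 for GABARAPL1 and -0.60 for ATG12. In LX-2 AA_Dep it was -1.23 for SQSTM1, -0.95 for MAP1LC3B, -0.75 for NPC1, -0.70 for ATG12 and -0.51 for ATG14. In HMLE Twist_OE it was -2.84 for MAP1LC3A, -1.15 for SQSTM1, 1.02 for CTSD, -0.96 for CTSB, -0.92 for CTSL and -0.74 for WIPI1. In HMLE thapsigargin it was -0.95 for MAP1LC3B and 0.28 for SQSTM1, and in HMLE AA_Dep -0.69 for MAP1LC3B and 0.42 for TFE3.

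Between the lines, the thapsigargin response of shCtrl cells in LX-2 minus that in HMLE was 1.30 for MCOLN1, -1.14 for CTSB, -0.97 for TFEB, -0.89 for LAMP1, 0.88 for SQSTM1 and 0.87 for WIPI1. For AA_Dep the difference was -1.89 for ULK1, -1.70 for MAP1LC3A, -1.42 for CTSB, -1.38 for MITF, -1.37 for MAP1LC3B and -1.29 for LAMP1. With shCtrl, MAP1LC3A stood under 1 CPM in HMLE DMSO, and its AA_Dep difference was no longer called without any 1 of 4 libraries. The shATF4 effect in DMSO in LX-2 minus that in HMLE was -1.09 for MITF, -0.69 for ATG9A, 0.56 for SQSTM1, -0.49 for GLA, 0.48 for CTSD and 0.45 for CTSL. MAP1LC3B had a lower response with shATF4 in thapsigargin and AA_Dep of both lines. In LX-2 DMSO, SQSTM1, MAP1LC3B, ATG12, NPC1 and WIPI1 were called higher with shATF4, which enters their LX-2 differences of responses. With all 16 libraries MAP1LC3B in thapsigargin was the 1 LX-2 difference of responses between shRNAs still called among the members. The SQSTM1 difference was negative in LX-2 thapsigargin and positive in HMLE thapsigargin. Whether these 2 SQSTM1 differences differ from each other was not tested.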

How the results depend on the processing

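Counts of members called were within 1.5 times of those reported in 30 of 30 comparisons with DESeq2's size factors and in 29 each by the DESeq2 Wald test, with no count filter and with a replicate block. The exception was the difference of AA_Dep responses between shRNAs in HMLE, with 2 members called by edgeR, 1 by the Wald test, 4 with no filter and 4 with the replicate block. With all 16 LX-2 libraries the counts were 0 for TGFbeta in shCtrl cells, 7 for AA_Dep in shCtrl cells, 0 for TGFbeta, 4 for thapsigargin and 6 for AA_Dep in shATF4 cells, 0 between shRNAs in DMSO, 0 in thapsigargin, 0 in AA_Dep and 1 in TGFbeta, 1 for the thapsigargin and 0 for the AA_Dep difference of responses, 8 for the AA_Dep response between lines and 0 for the shATF4 effect between lines. NPC2 in LX-2 shCtrl thapsigargin then turned to 1.07, TFE3 between shRNAs in LX-2 thapsigargin to 0.02 and TFEB in the thapsigargin response between lines to 0.33. The cause of these changes was not tested.

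Leaving out 1 library at a time gave these lowest and highest counts in LX-2: 8 and 10 for TGFbeta in shCtrl cells, 9 and 13 in shATF4 cells, 3 and 15 between shRNAs in AA_Dep, 8 and 9 in TGFbeta, 2 and 2 in thapsigargin, 2 and 5 in DMSO, and 3 and 5 for the thapsigargin and 4 and 14 for the AA_Dep difference of responses. In HMLE they were 9 and 12 for thapsigargin in shCtrl cells, 8 and 16 in shATF4 cells, 7 and 12 between shRNAs in DMSO, 7 and 7 in AA_Dep, and 1 and 2 for each of the thapsigargin and AA_Dep differences of responses. For the shATF4 effect between lines they were 3 and 6. Groups held by 1 library could not be left out.

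Samples of the same replicate number did not deviate together in every pair of groups. Over 21 pairs in LX-2 the correlation of their deviations lay between -0.59 and 0.47 (median -0.0461, 6 pairs over 0.1). Over 21 pairs in HMLE it lay between -0.11 and 0.391 (median 0.121, 13 pairs over 0.1), so more HMLE pairs deviated together. The pairing was not used in either line, and the replicate block is given as an alternative alone. With 2 libraries a group, members at a few CPM (GABARAP, ATG10, TFEB in LX-2, MAP1LC3A in HMLE) rest on few counts.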

Other observations

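CTSS and RETREG1, from the wider list of pathway genes, were chosen after their values were seen. CTSS, a lysosomal cathepsin, had 18.7 and 19 CPM in LX-2 shATF4 DMSO and 5.45 and 5.26 CPM in LX-2 shCtrl DMSO (1.84 ± 0.14, adjusted p = 5.4e-07 by edgeR's quasi-likelihood test). In LX-2 TGFbeta CTSS had 26.7 and 27.1 CPM with shATF4 and 6.93 and 6.42 CPM with shCtrl (2.01 ± 0.14, 6e-08). In HMLE DMSO it had 5.74 and 5.48 CPM with shATF4 and 5.76 and 7.01 CPM with shCtrl, and the shATF4 effect differed between the lines by 1.99 ± 0.19 (adjusted p = 1e-07). With all 16 LX-2 libraries these 3 CTSS estimates were 1.82, 2.01 and 2 with adjusted p of 0.52, 0.21 and 0.3, so none was called. PTPRC, ALB, APOA1 and CD68, markers of blood and liver cells, summed with PECAM1 and VWF to between 1.03 and 5.11 CPM in LX-2.

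RETREG1, a receptor for the autophagy of the endoplasmic reticulum, had 26.7 and 30.8 CPM in LX-2 shATF4 thapsigargin and 28.7 CPM in LX-2 shCtrl thapsigargin, against 3.69 and 4.72 CPM in shATF4 DMSO and 6.82 and 6.91 CPM in shCtrl DMSO. Its rise was 2.79 ± 0.16 with shATF4 and 2.09 ± 0.17 with shCtrl. In the discordant library RETREG1 stood at 19.8 CPM, and both rises were called with all 16 libraries. Under Twist_OE in HMLE it had 3.64 and 3.65 CPM with shATF4 and 1.45 and 0.919 CPM with shCtrl (1.62 ± 0.22, adjusted p = 6.9e-06), beside the differences in TWIST1 and epithelial markers already given, whose part was not tested.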
